A study of Homo sapiens with 6 samples.

Results

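The Hippo pathway genes described here are 36 of 21676 gene symbols counted in cells of the 83 line with ApoD overexpression and in control cells of that line. The 36 genes were chosen by name, with earlier results of these data known. They comprise 14 upstream Hippo components, 8 co-activators, TEAD and VGLL factors, and 14 genes known as targets of the co-activator YAP and its TEAD partners. With ApoD overexpression, 7 of the 14 target genes rose and 2 fell, and the rises ran from 1.55-fold for ASAP1 to 2.83-fold for FJX1. Of all tested genes 24.2% rose and 24.6% fell. The share that rose went with abundance, from 3.81% of genes with a mean count under 100 to 45.3% of those with 5000 or more. Neither co-activator transcript, YAP1 or WWTR1, passed the test. TEAD4 rose 1.70-fold and TEAD3 was 1.41-fold lower, and of 13 upstream components tested 3 rose and 2 fell. CCN2, among the most widely used YAP target genes, had no more than 41 counts in any library.

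The Hippo pathway is a kinase cascade that restrains growth in epithelia. The kinases MST1 and MST2, encoded by STK4 and STK3, act with the scaffold SAV1 on LATS1, LATS2 and their MOB1 partners, and the LATS kinases phosphorylate YAP and TAZ, which keeps these co-activators out of the nucleus. Unphosphorylated YAP and TAZ bind TEAD transcription factors and switch on genes of growth, adhesion and matrix. Much of this control acts on proteins, by phosphorylation, location and breakdown, which transcript counts do not measure.

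RNA was sequenced from 3 libraries of cells with ApoD overexpression and 3 libraries of control cells, all of human origin. The submitters call the 83 line a SACC cell, a term that commonly stands for salivary adenoid cystic carcinoma. APOD encodes apolipoprotein D, a secreted carrier of small lipids. The labels give neither the way in which the gene was introduced nor what the control cells received, and they name no batch, clone or separate culture, so every p-value reflects the scatter among libraries, and that scatter may be purely technical.

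The libraries held 37542568 to 40416964 counts with ApoD overexpression and 38845545 to 39583565 counts in control cells. APOD had 628, 528 and 625 counts with ApoD overexpression against 9, 8 and 2 counts in control cells. Library properties moved with the group: 17378 to 17789 genes had a count with ApoD overexpression against 18591 to 18685 in control cells, and mitochondrially encoded genes took 3.19% to 3.54% of the counts against 4.1% to 4.5% in control cells. The 6 epithelial markers were all detected, at a summed level of 3531 to 4035 CPM with ApoD overexpression and 2957 to 4035 CPM in control cells, with KRT7 higher and EPCAM and CDH1 lower. Of 5 markers of adenoid cystic carcinoma, MYB, MYBL1 and NFIB were present at summed levels of 46.1 to 53.7 CPM with ApoD overexpression and 38.0 to 55.7 CPM in control cells, none was called, and KIT and SOX10 were not analysed here. Summed fibroblast markers ran from 9.85 to 13.8 CPM with ApoD overexpression against 26.9 to 32.6 CPM in control cells, with 2 of 6 lower and COL1A2, DCN, LUM and PDGFRB at no more than 4 counts in any library. Endothelial markers ran from 1.35 to 2.30 CPM with ApoD overexpression against 8.01 to 13.3 CPM in control cells, with all 3 markers measured lower. Leukocyte markers ran from 36.7 to 39.0 CPM with ApoD overexpression against 15.4 to 32.7 CPM in control cells, nearly all of it CD68, which was higher. PTPRC had no more than 12 counts in a library and ITGAM no more than 17. The part of these differences in the pathway's results was not tested. In bulk libraries, fewer cells of a type and less RNA per cell cannot be told apart.

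Levels are given as CPM, counts per 1000000 of a library after TMM scaling. This scaling evens out library sizes by a trimmed mean of log ratios. Where genes are compared with each other, levels are given as FPKM, which divides by the library total and gene length without TMM scaling. The TMM factors were 0.946 to 0.975 with ApoD overexpression and 1.02 to 1.07 in control cells. FPKM therefore sets overexpression levels lower against control levels than CPM does. Differences were tested with edgeR over 14629 genes that passed a filter on low counts, and a gene was called where its Benjamini-Hochberg adjusted p was under 0.05. Of the 36 genes 35 passed the filter. The exception was AMOT, the founding angiomotin, with 1, 0 and 0 counts with ApoD overexpression against 0, 2 and 2 counts in control cells.

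Of the 35 genes tested 11 rose and 6 fell, which is 48.6%, against 48.8% of all tested genes called. The pathway as a whole was called about as often as genes at large, of which 24.2% rose and 24.6% fell. Among the 14 target genes 7 rose and 2 fell, with a median log2 fold change of 0.64. The upstream components had 3 higher and 2 lower of 13 with a median of −0.08, and the co-activators, TEAD and VGLL factors had 1 higher and 2 lower of 8 with a median of −0.01, beside −0.02 for all tested genes. Of the 35 genes tested 10 were called with a rise over 1.5-fold, against 10.6% of all tested genes, and 0 with a fall over 1.5-fold, against 17.8% of all tested genes. The medians and counts describe lists that were chosen with earlier results of these data known.

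**Figure D1:**
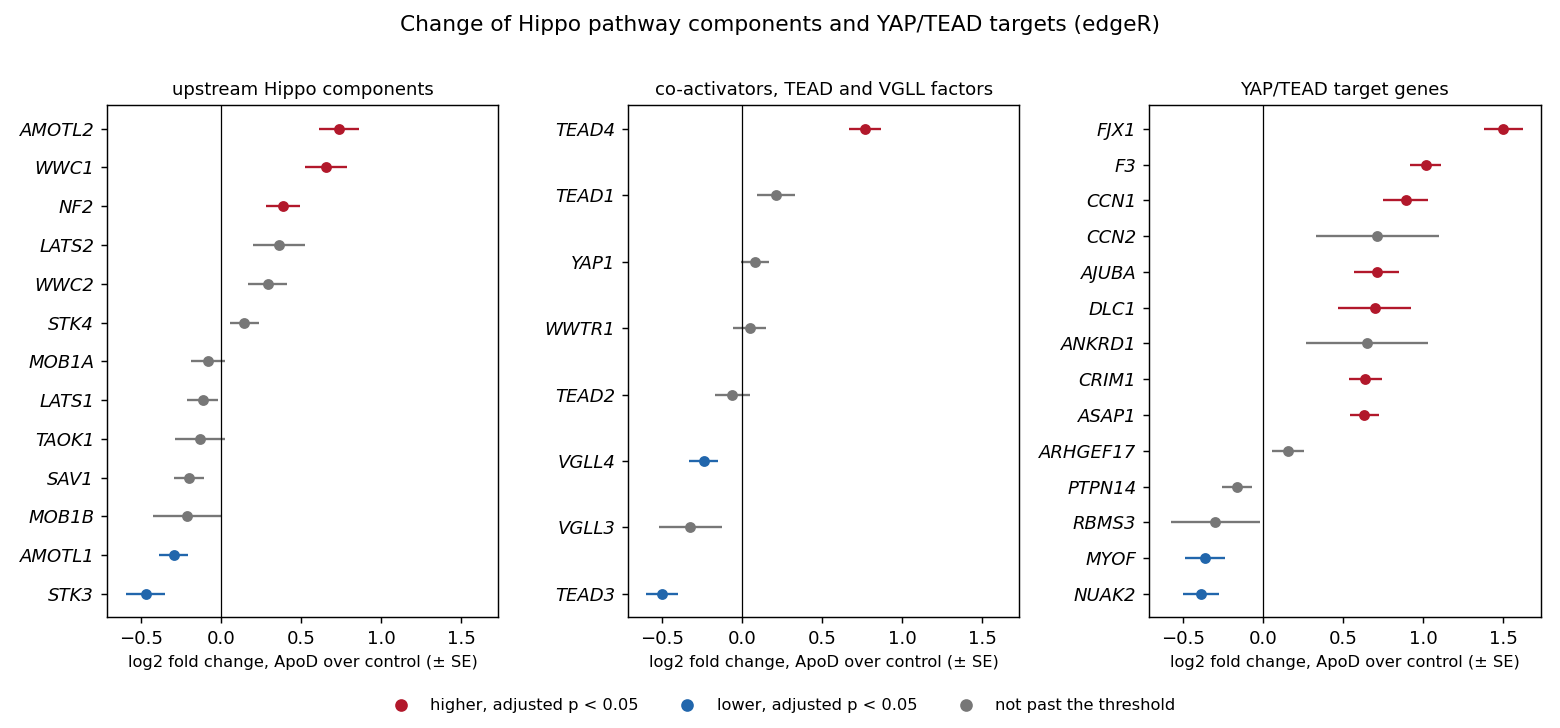
Log2 fold change (x axis, ApoD overexpression over control) with its SE for the 35 tested genes, grouped by role, from edgeR on 3 libraries a group. The colours mark genes that rose, fell or did not pass an adjusted p of 0.05; the 7 target genes that rose lie between 0.63 and 1.5.

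Among the upstream components, AMOTL2, WWC1 and NF2 rose and STK3 and AMOTL1 fell, so angiomotins moved in both directions. AMOTL2, an angiomotin that binds YAP at cell junctions and activates LATS kinases, had 121, 154 and 155 CPM with ApoD overexpression against 95.7, 72.9 and 89.0 CPM in control cells. All overexpression libraries lay above the controls, and the log2 fold change was 0.74 ± 0.12 (SE, edgeR adjusted p = 0.000467). WWC1, which encodes the scaffold KIBRA, had 98.9, 119 and 117 CPM with ApoD overexpression against 82.9, 57.4 and 72.2 CPM in control cells. Its groups did not overlap either, with a log2 fold change of 0.65 ± 0.13 (SE, edgeR adjusted p = 0.00143). NF2, which encodes merlin, the tumour suppressor that brings LATS kinases to the membrane, averaged 53.0 ± 3.58 CPM with ApoD overexpression and 40.5 ± 4.42 CPM in control cells (SD, n = 3 each). Its log2 fold change was 0.39 ± 0.11 (SE, edgeR adjusted p = 0.0102), and the call was lost without control replicate 2 (edgeR adjusted p = 0.0616) and in limma on FPKM (adjusted p from 0.0568 to 0.0909).

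STK3, the gene of the kinase MST2, had 25.1, 22.0 and 24.1 CPM with ApoD overexpression against 29.2, 31.1 and 38.3 CPM in control cells. The groups did not overlap, and STK3 fell by 0.47 ± 0.12 on the log2 scale (SE, edgeR adjusted p = 0.00744). AMOTL1, a paralog of AMOTL2, had 225, 212 and 236 CPM with ApoD overexpression against 291, 279 and 257 CPM in control cells. It fell by 0.30 ± 0.09 on the log2 scale (SE, edgeR adjusted p = 0.0158), a call lost without ApoD overexpression replicate 1 (edgeR adjusted p = 0.0578) or without control replicate 2 (edgeR adjusted p = 0.0652).

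The core kinases and their partners otherwise did not pass the test. STK4, the gene of MST1, averaged 99.7 ± 4.27 CPM with ApoD overexpression and 90.1 ± 5.35 CPM in control cells (SD, n = 3 each), with groups that did not overlap (log2 fold change 0.15 ± 0.09 SE; adjusted p = 0.194 by edgeR). SAV1, the scaffold of the MST kinases, averaged 41.3 ± 1.94 CPM with ApoD overexpression and 47.5 ± 2.42 CPM in control cells (SD, n = 3 each), again without overlap (log2 fold change −0.20 ± 0.09 SE; adjusted p = 0.0992 by edgeR). It passed when libraries were scaled by their totals alone (edgeR adjusted p = 0.0174) and in limma on FPKM (adjusted p from 0.0153 to 0.0248). It also passed with the abundance trend removed, that is, with offsets that take out each library's drift of log ratios with abundance (adjusted p = 0.0278 by edgeR).

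LATS1 had 41.7, 37.4 and 42.7 CPM with ApoD overexpression against 43.5, 46.0 and 42.4 CPM in control cells, and the groups overlapped (edgeR adjusted p = 0.355). LATS2, its paralog and itself a YAP target in many cells, had 11.96, 13.3 and 15.3 CPM with ApoD overexpression against 12.7, 10.1 and 8.72 CPM in control cells, with a log2 fold change of 0.36 ± 0.16 (SE, edgeR adjusted p = 0.0824). Control replicate 1 was the highest control, and without it LATS2 passed with a log2 fold change of 0.53 (edgeR adjusted p = 0.0113). LATS2 also passed without ApoD overexpression replicate 1 (edgeR adjusted p = 0.0421) and with the abundance trend removed (0.0347). WWC2, a paralog of KIBRA, averaged 36.2 ± 5.31 CPM with ApoD overexpression and 29.5 ± 1.98 CPM in control cells (SD, n = 3 each, edgeR adjusted p = 0.0653). WWC2 passed without ApoD overexpression replicate 2 (edgeR adjusted p = 0.0178), without control replicate 1 (0.0442) and with no filter on low counts (0.0415).

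MOB1A, which encodes a LATS partner, averaged 145 ± 13.4 CPM with ApoD overexpression and 154 ± 16.6 CPM in control cells, and TAOK1, a kinase that activates MST kinases, averaged 105 ± 27.0 CPM with ApoD overexpression and 115 ± 4.66 CPM in control cells (SD, n = 3 each). TAOK1 was lowest in ApoD overexpression replicate 2, at 75.3 CPM, and neither gene passed (edgeR adjusted p = 0.555 for MOB1A and 0.507 for TAOK1). MOB1B, the MOB1A paralog, averaged 14.0 ± 4.27 CPM with ApoD overexpression and 16.3 ± 3.75 CPM in control cells (SD, n = 3 each, edgeR adjusted p = 0.426). Its exons overlap those of DCK on the same strand in GENCODE 29, and DCK had 7217 counts over the 6 libraries against 3603 for MOB1B, so its counts are uncertain.

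Within pairs of paralogs, the proportions were compared per length. AMOTL2 made up 51.2%, 58.5% and 56.0% of the summed angiomotin FPKM with ApoD overexpression against 38.9%, 33.7% and 40.2% in control cells, so the more abundant angiomotin was AMOTL2 with ApoD overexpression and AMOTL1 in control cells. STK4 exceeded STK3 4.66-fold with ApoD overexpression and 3.05-fold in control cells, and these groups did not overlap. LATS1 exceeded LATS2 2.06-fold with ApoD overexpression and 2.90-fold in control cells, with overlap. The exact two-sided permutation p was 0.1 for the AMOTL2 share and the STK pair, the smallest that 3 against 3 libraries can give, and 0.2 for the LATS pair. Adjusted over the 12 shares and ratios examined, the exact p-values were 0.2, 0.2 and 0.343.

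**Figure D2:**
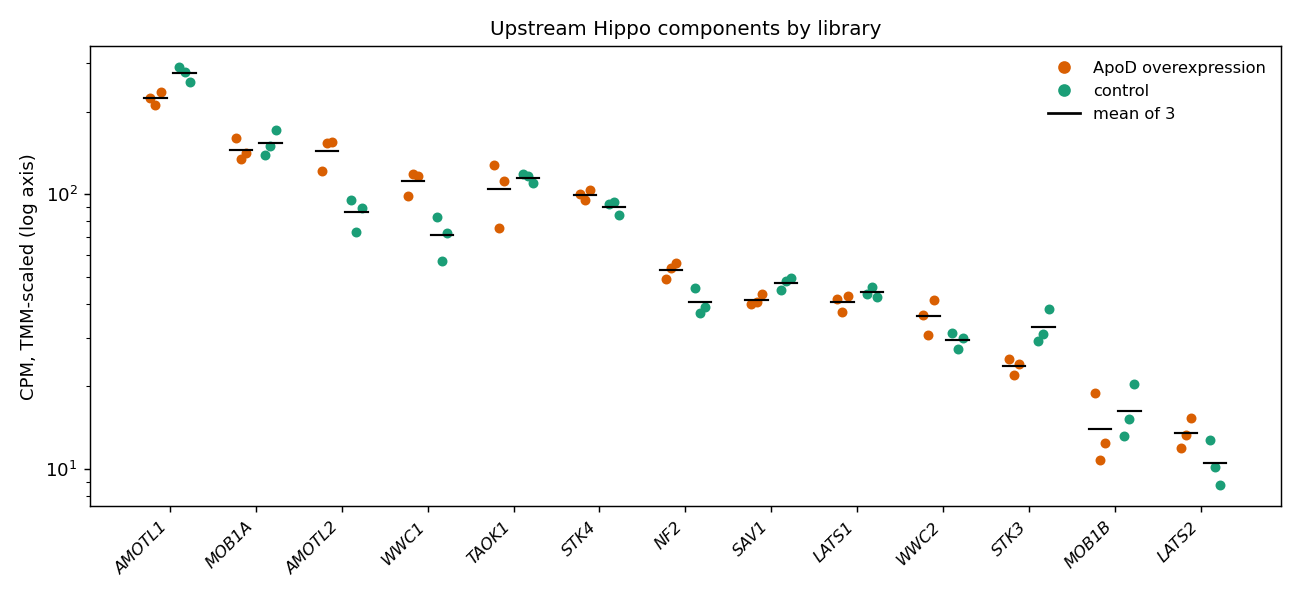
Level in CPM of upstream Hippo components in each of the 3 ApoD overexpression libraries (left for each gene) and the 3 control libraries (right), with the group mean. AMOTL2 and WWC1 lie higher with ApoD overexpression and STK3 and AMOTL1 lower, without overlap.

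Of the factors that carry the signal into the nucleus, neither co-activator passed the test. YAP1 had 241, 208 and 221 CPM with ApoD overexpression against 209, 213 and 211 CPM in control cells, with a log2 fold change of 0.08 ± 0.09 (SE, edgeR adjusted p = 0.460). WWTR1, the gene of TAZ, had 77.8, 69.6 and 74.1 CPM with ApoD overexpression against 62.4, 73.3 and 78.6 CPM in control cells, with a log2 fold change of 0.05 ± 0.10 (SE, edgeR adjusted p = 0.727). The groups overlapped for both genes, and both signs were reversed with library totals alone, with the abundance trend removed and on FPKM. Per length YAP1 exceeded WWTR1 2.82-fold with ApoD overexpression and 2.76-fold in control cells (exact two-sided permutation p = 0.8, also 0.8 adjusted over 12).

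The TEAD genes encode the DNA-binding partners of YAP and TAZ, and 2 of the 4 changed, in opposite directions. TEAD4 had 57.4, 68.2 and 68.7 CPM with ApoD overexpression against 37.5, 39.3 and 37.4 CPM in control cells, a log2 fold change of 0.77 ± 0.10 (SE, edgeR adjusted p = 8.37e-05). TEAD3 had 22.0, 22.5 and 20.6 CPM with ApoD overexpression against 31.2, 31.4 and 29.5 CPM in control cells, and fell by 0.50 ± 0.10 on the log2 scale (SE, edgeR adjusted p = 0.00157). In both genes the libraries within a group lay close together and the groups were far apart. TEAD1 averaged 137 ± 23.4 CPM with ApoD overexpression and 119 ± 8.29 CPM in control cells (SD, n = 3 each, edgeR adjusted p = 0.164); without ApoD overexpression replicate 2, its lowest overexpression library at 113 CPM, the log2 fold change was 0.33 against 0.21 and passed (edgeR adjusted p = 0.0202). TEAD2 averaged 28.8 ± 2.77 CPM with ApoD overexpression and 30.04 ± 1.53 CPM in control cells (SD, n = 3 each, edgeR adjusted p = 0.663).

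Per length TEAD4 was the most abundant TEAD in both groups, at 36.05 ± 3.13 FPKM with ApoD overexpression and 23.0 ± 0.689 FPKM in control cells (SD, n = 3 each). Its share of the summed TEAD FPKM was 51.5%, 56.8% and 54.9% with ApoD overexpression against 39.5%, 40.8% and 40.4% in control cells. TEAD3 made up 11.2%, 10.6% and 9.32% with ApoD overexpression against 18.6%, 18.4% and 18.0% in control cells, and TEAD2 14.1% ± 1.52 with ApoD overexpression against 18.5% ± 1.21 in control cells (SD, n = 3 each). The groups did not overlap for these 3 genes, and each exact two-sided permutation p was 0.1, or 0.2 adjusted over 12. TEAD1, second in both groups, made up 21.2% ± 3.45 with ApoD overexpression and 22.9% ± 1.36 in control cells (SD, n = 3 each; exact two-sided permutation p = 0.7, 0.764 adjusted over 12). The summed TEAD level was 63.1, 66.0 and 69.6 FPKM with ApoD overexpression against 56.3, 57.8 and 57.3 FPKM in control cells, without overlap. YAP1 and WWTR1 together had 50.9, 43.1 and 46.5 FPKM with ApoD overexpression against 45.5, 48.5 and 50.8 FPKM in control cells, with overlap. Neither of these sums is TMM-scaled. In CPM, YAP1 averaged 223 with ApoD overexpression against 211 in control cells, and WWTR1 averaged 73.8 with ApoD overexpression against 71.4 in control cells.

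**Figure D3:**
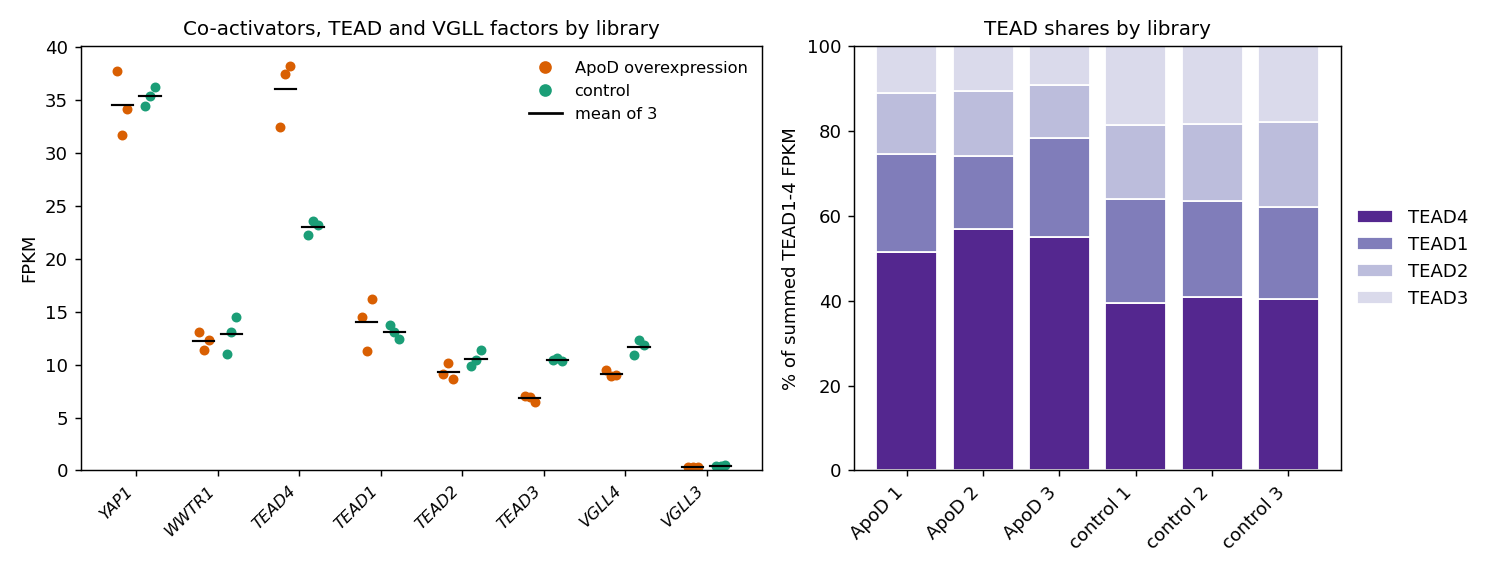
Level of the co-activator, TEAD and VGLL genes in each of the 3 ApoD overexpression libraries (left for each gene) and the 3 control libraries (right), with the group mean. TEAD4 lies higher and TEAD3 lower with ApoD overexpression, while the libraries of YAP1, WWTR1, TEAD1 and TEAD2 overlap.

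The vestigial-like proteins bind TEAD at the surface that YAP uses. VGLL4, which competes with YAP for TEAD, averaged 53.7 ± 1.30 CPM with ApoD overexpression and 63.4 ± 3.59 CPM in control cells (SD, n = 3 each). It fell by 0.24 ± 0.09 on the log2 scale (SE, edgeR adjusted p = 0.0428), and 9 of 15 alternatives lost this call, among them the removal of any library except control replicate 1 (edgeR adjusted p from 0.0546 to 0.192) and the Wald test of DESeq2 (adjusted p = 0.0650). ATG7, with 8882 counts over the 6 libraries against 13860 for VGLL4, overlaps VGLL4 on the opposite strand in GENCODE 29, and whether the counting used strand is not given in the sources used here. VGLL3 averaged 4.05 ± 0.507 CPM with ApoD overexpression and 5.06 ± 0.543 CPM in control cells (SD, n = 3 each), without overlap, and did not pass (edgeR adjusted p = 0.189).

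TEAD proteins bind the letters GGAATG. For the AP-1 proteins, with which they often share elements, the letters TGANTCA were taken, with any base allowed at N. Both were searched on both strands in the 250 bases before the annotated start of each gene, in RefSeq promoter windows of GRCh38.p14, which were found for 28 of the 36 genes and not for STK3, TEAD1, TEAD4, CCN1, CRIM1, DLC1, ARHGEF17 and ASAP1. The TEAD letters stood in at least 1 window of 8 of the 28 genes (28.6%), against 3902 of 27305 genes (14.3%) with a RefSeq window. Among the target genes it was 5 of 9 (CCN2, ANKRD1, AJUBA, NUAK2 and PTPN14), among the upstream components 2 of 13 (AMOTL2 and WWC2) and among the nuclear factors 1 of 6 (YAP1). The AP-1 letters stood in 4 of the 28 (14.3%), namely ANKRD1, F3, MOB1B and LATS1, against 8.06% of all genes. A match is a description of the letters and not evidence of binding.

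The windows of 4 target genes with the TEAD letters are printed because they cover every outcome of the test, namely a rise (AJUBA), a fall (NUAK2) and differences that did not pass (CCN2 and ANKRD1), and that of F3 because F3 rose with AP-1 letters alone. Each runs 5′ to 3′ along the gene on the minus strand of GRCh38.p14 and ends at the base before the start, with the letters of either motif in capitals, and no sites overlap. The windows are chr6:131951373-131951622 for CCN2, chr10:90921088-90921337 for ANKRD1, chr14:22976843-22977092 for AJUBA, chr1:205321746-205321995 for NUAK2 and chr1:94541760-94542009 for F3.
CCN2: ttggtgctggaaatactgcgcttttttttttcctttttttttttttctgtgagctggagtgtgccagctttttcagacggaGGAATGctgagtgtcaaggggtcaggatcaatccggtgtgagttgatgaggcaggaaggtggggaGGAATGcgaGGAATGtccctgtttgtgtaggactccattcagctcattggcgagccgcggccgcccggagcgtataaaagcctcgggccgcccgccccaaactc
ANKRD1: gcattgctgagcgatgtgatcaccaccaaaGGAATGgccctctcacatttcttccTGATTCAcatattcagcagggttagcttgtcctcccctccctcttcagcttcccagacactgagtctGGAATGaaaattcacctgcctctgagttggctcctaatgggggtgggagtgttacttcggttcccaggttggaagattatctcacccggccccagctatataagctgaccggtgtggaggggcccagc
AJUBA: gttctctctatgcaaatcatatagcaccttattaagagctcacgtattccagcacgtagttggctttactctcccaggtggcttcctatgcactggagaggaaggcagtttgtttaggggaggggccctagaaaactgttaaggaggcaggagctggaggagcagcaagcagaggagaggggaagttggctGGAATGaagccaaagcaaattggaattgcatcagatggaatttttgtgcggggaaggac
NUAK2: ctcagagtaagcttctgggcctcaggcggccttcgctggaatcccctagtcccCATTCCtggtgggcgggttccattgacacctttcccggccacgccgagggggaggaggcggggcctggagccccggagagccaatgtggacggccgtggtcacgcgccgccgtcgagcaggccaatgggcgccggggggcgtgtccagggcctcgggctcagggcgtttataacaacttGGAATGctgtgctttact
F3: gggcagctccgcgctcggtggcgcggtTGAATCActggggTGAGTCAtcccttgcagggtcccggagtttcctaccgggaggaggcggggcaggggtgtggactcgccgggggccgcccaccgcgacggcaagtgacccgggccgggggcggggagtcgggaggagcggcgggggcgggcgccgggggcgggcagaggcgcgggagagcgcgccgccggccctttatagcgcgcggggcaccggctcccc
CCN2 holds the TEAD letters 169, 104 and 95 bases before the start, all on the strand of the gene. ANKRD1 holds them 220 and 128 bases before the start, with AP-1 letters between them at 195 bases. AJUBA holds them once, at 59 bases, and its other RefSeq window has none. NUAK2 holds them at 18 bases and, on the opposite strand, at 197 bases, and F3 holds AP-1 letters at 223 and 210 bases. The windows of FJX1, MYOF and RBMS3 hold neither motif.

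FJX1, F3 and CCN1 had the largest rises among the target genes. FJX1 encodes the human relative of four-jointed, a Drosophila Golgi kinase that acts on the cadherins Fat and Dachsous upstream of Hippo. It had 46.4, 59.8 and 58.8 CPM with ApoD overexpression against 20.9, 18.1 and 19.3 CPM in control cells. The groups were far apart, and the log2 fold change was 1.5 ± 0.12 (SE, edgeR adjusted p = 3.62e-06). F3 encodes tissue factor, the membrane protein that starts blood coagulation, and had 338, 375 and 364 CPM with ApoD overexpression against 174, 163 and 196 CPM in control cells. It rose 2.02-fold, a log2 fold change of 1.02 ± 0.10 (SE, edgeR adjusted p = 9.45e-06), and at 149.9 ± 5.73 FPKM with ApoD overexpression and 80.6 ± 9.11 FPKM in control cells (SD, n = 3 each) it was the most abundant target gene per length in both groups.

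CCN1 encodes a secreted matrix protein of the CCN family and is an early YAP target in many cell types. It had 105, 142 and 137 CPM with ApoD overexpression against 64.6, 59.4 and 82.9 CPM in control cells, a log2 fold change of 0.89 ± 0.14 (SE, edgeR adjusted p = 0.000326). All overexpression libraries lay above the controls, with ApoD overexpression replicate 1 nearest to them. CCN2, its relative formerly called connective tissue growth factor, had 41, 41 and 39 counts with ApoD overexpression against 26, 24 and 30 counts in control cells. These groups did not overlap, but at so few counts the log2 fold change of 0.71 ± 0.38 (SE) did not pass (edgeR adjusted p = 0.142). With the abundance trend removed CCN2 passed at a log2 fold change of 1.32 (edgeR adjusted p = 0.0147), and in limma on unfiltered log2(FPKM + 1) it passed at a difference of 0.16 (adjusted p = 0.0218). Per length CCN1 exceeded CCN2 122-fold with ApoD overexpression and 108-fold in control cells (exact two-sided permutation p = 0.3, 0.45 adjusted over 12). The gene AL133346.1 overlaps CCN2 on the opposite strand in GENCODE 29, so the few CCN2 counts are uncertain as to strand. Among the called genes, AMOTL2 overlaps RPL39P5 and AJUBA overlaps AL132780.3 on the same strand, and STK3, AMOTL1 and CRIM1 overlap AP003355.2, AP002383.2 and AC007378.1 on the opposite strand. The counts of these overlapping genes were not analysed here, so the same uncertainty holds.

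ANKRD1, an ankyrin repeat protein induced by YAP in many cells, was also scarce. It had 59, 73 and 66 counts with ApoD overexpression against 67, 26 and 44 counts in control cells, and the groups overlapped through control replicate 1. The log2 fold change was 0.65 ± 0.38 (SE, edgeR adjusted p = 0.176), and 1.055 without that library (edgeR adjusted p = 0.0425). With the abundance trend removed it was 1.18 (edgeR adjusted p = 0.0269).

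AJUBA, CRIM1, ASAP1 and DLC1 rose between 1.55-fold and 1.63-fold. AJUBA, a LIM protein of cell junctions that binds and inhibits LATS kinases, had 195, 267 and 229.6 CPM with ApoD overexpression against 171, 124 and 128 CPM in control cells, a log2 fold change of 0.71 ± 0.14 (SE, edgeR adjusted p = 0.00139). CRIM1, a membrane protein that binds bone morphogenetic proteins, averaged 164 ± 14.8 CPM with ApoD overexpression and 106 ± 9.52 CPM in control cells (SD, n = 3 each), a log2 fold change of 0.64 ± 0.10 (SE, edgeR adjusted p = 0.000305). ASAP1, an Arf GTPase-activating protein of focal adhesions, averaged 110.4 ± 7.73 CPM with ApoD overexpression and 71.3 ± 2.83 CPM in control cells (SD, n = 3 each), a log2 fold change of 0.63 ± 0.09 (SE, edgeR adjusted p = 0.000161). The groups did not overlap for any of these genes.

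DLC1 was much scarcer and less stable. It had 4.37, 6.62 and 5.06 CPM with ApoD overexpression against 2.70, 3.93 and 3.26 CPM in control cells, a log2 fold change of 0.70 ± 0.23 (SE, edgeR adjusted p = 0.0239). The call was lost without ApoD overexpression replicate 2 (edgeR adjusted p = 0.108), without control replicate 1 (0.0530), with library totals alone (0.0574) and in limma on unfiltered FPKM (adjusted p = 0.109).

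Both target genes that fell did so by less than 1.5-fold, and neither call held without ApoD overexpression replicate 1 or without control replicate 2. NUAK2, an AMPK-related kinase, had 17.4, 17.4 and 18.3 CPM with ApoD overexpression against 21.2, 25.8 and 22.6 CPM in control cells, without overlap, and fell by 0.39 ± 0.11 on the log2 scale (SE, edgeR adjusted p = 0.0145). Without those libraries in turn its edgeR adjusted p was 0.0513 and 0.0911. MYOF, which encodes the membrane repair protein myoferlin, had 403, 345 and 434 CPM with ApoD overexpression against 589, 500.3 and 430.1 CPM in control cells, with overlap, and fell by 0.36 ± 0.12 on the log2 scale (SE, edgeR adjusted p = 0.0283). Without control replicate 1 the log2 fold change of MYOF was −0.23 (edgeR adjusted p = 0.0896), and leaving out ApoD overexpression replicate 1, ApoD overexpression replicate 2 or control replicate 2 gave edgeR adjusted p-values of 0.0553, 0.0831 and 0.0727.

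The remaining target genes did not pass. PTPN14, a phosphatase that binds YAP and is itself a YAP target, averaged 120.1 ± 10.2 CPM with ApoD overexpression and 135 ± 6.94 CPM in control cells (SD, n = 3 each, edgeR adjusted p = 0.167). It passed as lower with library totals alone (edgeR adjusted p = 0.0254), after removal of the abundance trend (0.00819) and in limma on filtered FPKM (0.0348 and 0.0351). ARHGEF17 averaged 38.5 ± 2.72 CPM with ApoD overexpression and 34.6 ± 1.01 CPM in control cells, without overlap (SD, n = 3 each, edgeR adjusted p = 0.212), and RBMS3, an RNA-binding protein, averaged 1.74 ± 0.344 CPM with ApoD overexpression and 2.14 ± 0.139 CPM in control cells (SD, n = 3 each, edgeR adjusted p = 0.396). By groups alone, 9 of the 14 target genes had every overexpression library above every control, against 29% of all tested genes, and 1 had every library below, against 29.7%.

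**Figure D4:**
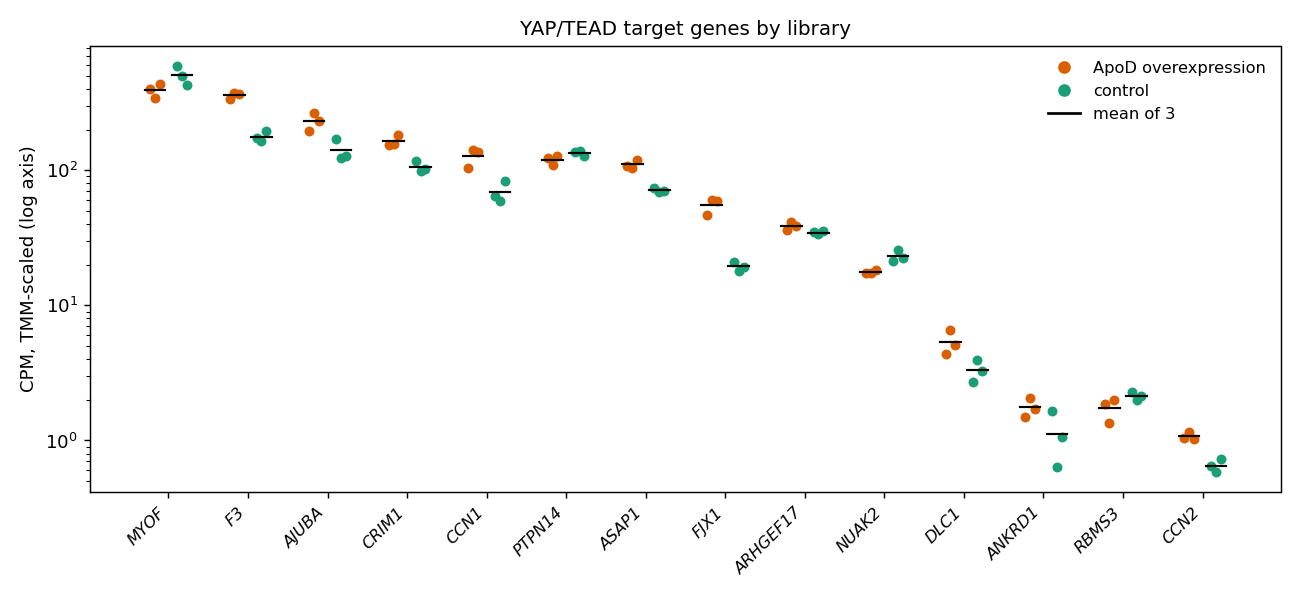
Level in CPM of the YAP/TEAD target genes in each of the 3 ApoD overexpression libraries (left for each gene) and the 3 control libraries (right), with the group mean. FJX1 and F3 lie higher with ApoD overexpression without overlap, while CCN2 and ANKRD1 lie between 0.586 and 2.06 CPM and the libraries of MYOF overlap.

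Abundance moved with direction across all tested genes, and the pathway genes are mostly abundant. Where the mean count was 5000 or more, 45.3% of all tested genes rose and 13.6% fell, while of those under 100 counts 3.81% rose and 29.1% fell. AJUBA, CRIM1 and F3 belong to the most abundant class. CCN1 and ASAP1 lie between 2000 and 5000 counts, where 38% of genes rose, FJX1 between 1000 and 2000, where 31.9% rose, and DLC1 between 100 and 500, where 12.5% rose. The median log2 fold change was 0.20 in the most abundant class and 0.13 and 0.08 in the next classes down. The genes just named had been called as rises, so their lying above these medians follows from that choice. MYOF and PTPN14, at −0.36 and −0.16, also lie in the most abundant class. NUAK2, at −0.39, lies between 500 and 1000 counts, where the median was −0.016. ARHGEF17, at 0.16, lies between 1000 and 2000 counts, and RBMS3, at −0.30, under 100. CCN2 and ANKRD1, at 0.71 and 0.65, lie in the class under 100 counts, where the median was −0.60. With each library's abundance trend removed, 14 of the 35 genes rose and 8 fell, and among the target genes 9 rose and 3 fell, beside 3269 higher and 3390 lower of all 14629 genes (45.5% called).

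**Figure D5:**
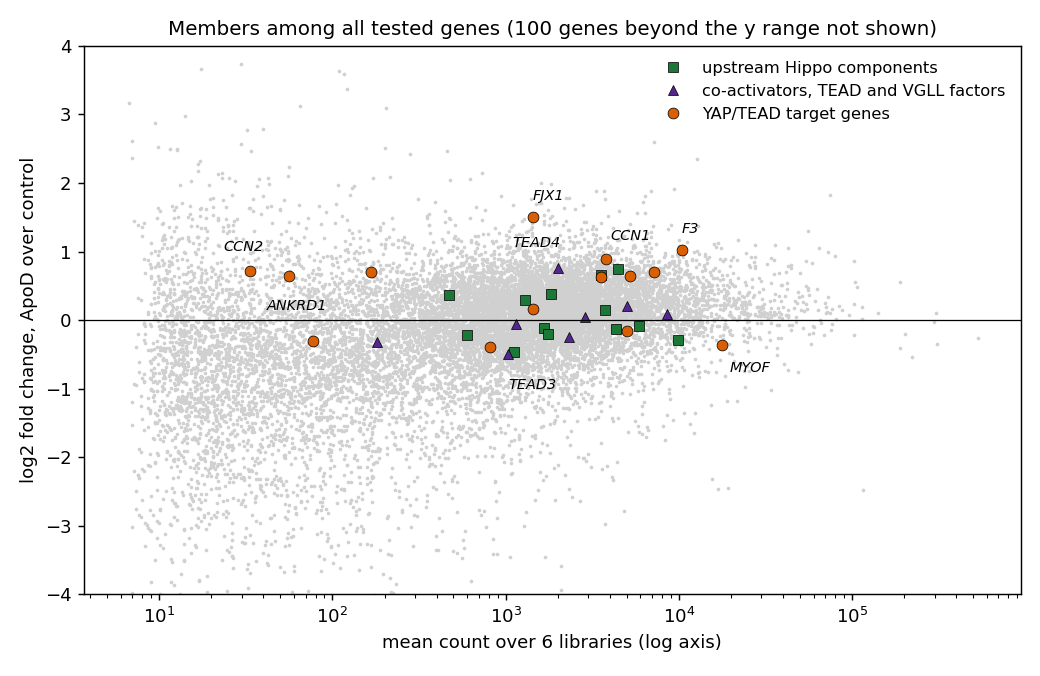
Log2 fold change (y axis, ApoD overexpression over control) against mean abundance (x axis) for all tested genes in grey and the pathway genes in colour by role. The plot leaves out 100 genes beyond a log2 fold change of 4, and the target genes FJX1 and F3 lie above most genes of their abundance.

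The rest of the pathway was taken from the other 2 lists, which were also chosen with earlier results of these data known. Of 48 other Hippo regulators, 42 were tested, of which 7 rose and 14 fell, with a median log2 fold change of −0.12, and 50% were called, near the 48.8% of all tested genes. The 4 with the largest change among those called all fell. RASSF4, of the RASSF family of MST-binding proteins, had 1.98, 0.648 and 1.07 CPM with ApoD overexpression against 6.59, 11.2 and 9.37 CPM in control cells, and fell by 2.86 ± 0.34 on the log2 scale (SE, edgeR adjusted p = 4.3e-05). LLGL2, a basolateral polarity protein, averaged 26.4 ± 2.45 CPM with ApoD overexpression and 86.3 ± 2.34 CPM in control cells, and FAT2, an atypical cadherin, 82.6 ± 8.46 CPM with ApoD overexpression and 244 ± 48.5 CPM in control cells (SD, n = 3 each). Their log2 fold changes were −1.71 ± 0.10 and −1.56 ± 0.14 (SE, edgeR adjusted p = 3.57e-07 and 6.29e-06). MAP4K1, a kinase best known from blood cells, had 3, 5 and 8 counts with ApoD overexpression against 20, 34 and 59 counts in control cells (log2 fold change −2.67 ± 0.60 SE; adjusted p = 0.00321 by edgeR). MAP4K4, a kinase that acts on LATS beside the MST kinases and was chosen after its values were seen, rose to 398 ± 22.9 CPM with ApoD overexpression against 181 ± 30.6 CPM in control cells (SD, n = 3 each; log2 fold change 1.14 ± 0.12 SE; adjusted p = 1.71e-05 by edgeR).

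Of 20 other YAP/TEAD targets, 19 were tested, of which 10 rose and 4 fell, with a median log2 fold change of 0.44, and 73.7% were called, beside 48.8% of all tested genes, of which 24.2% rose and 24.6% fell. Because earlier results were known when the list was chosen, these counts describe the list and are not a separate test of the target genes. The largest rise was that of NT5E, the cell-surface nucleotidase CD73, with 403, 358 and 399 CPM with ApoD overexpression against 96.1, 96.6 and 115 CPM in control cells (log2 fold change 1.92 ± 0.10 SE; adjusted p = 1.71e-07 by edgeR). The other 3 genes with the largest changes fell. CCDC80, a secreted matrix protein, averaged 10.2 ± 1.24 CPM with ApoD overexpression and 62.9 ± 10.4 CPM in control cells (SD, n = 3 each; log2 fold change −2.62 ± 0.14 SE; adjusted p = 2.49e-07 by edgeR). TGM2, a protein cross-linking enzyme, had 103, 91.2 and 93.0 CPM with ApoD overexpression against 211, 355 and 394 CPM in control cells (log2 fold change −1.74 ± 0.18 SE; adjusted p = 1.91e-05 by edgeR). IGFBP3, a carrier of insulin-like growth factors, had 1.96, 1.60 and 2.04 CPM with ApoD overexpression against 2.90, 9.94 and 5.97 CPM in control cells (log2 fold change −1.75 ± 0.37 SE; adjusted p = 0.00198 by edgeR), and was lost in limma on unfiltered FPKM (adjusted p = 0.0597). Target genes of both lists moved in both directions. The TEAD letters stood before 6 of 12 other targets with a RefSeq window (50%) and before 7 of 35 other regulators (20%), beside 14.3% of all genes.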

How the data were processed

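Total RNA of 6 libraries was extracted with an RNeasy kit and made into libraries with a SMARTER mRNA-Seq kit, per the labels' protocols. The authors deposited whole-number counts per gene symbol and FPKM values, each of which equals the count divided by the library total and 1 gene length. The aligner, the counter, its strand setting and the build were not given in the sources used here. Counts were tested two-sided by quasi-likelihood in edgeR 4.0.16 under R 4.3.3, after TMM scaling and filterByExpr with a minimum count of 10, with Benjamini-Hochberg adjustment over 14629 genes and a threshold of 0.05. An SE is the log2 fold change divided by the root of F. Alternatives used limma 3.58.1, with pseudocounts of 1 and 0.1 and a filter of 1 FPKM in 3 libraries, and DESeq2 1.42.0. The test was checked on simulated data. The replicate numbers were not taken as pairs. Family shares and ratios were computed from FPKM (AMOT, at up to 2 counts, included) and compared by exact permutation. The genes named were the 36 chosen, APOD and, from each of the other 2 lists, the 4 largest called changes; MAP4K4 was added after its values were seen. The members and lists were chosen with earlier results of these data known. Promoter windows are from RefSeq and overlapping genes from GENCODE 29. Genes of the lists that are absent from the table were not analysed here.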

Additional observations from a re-analysis of the deposited data

How the results depend on the processing

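Under all 15 alternatives 9 of the 11 rises were called (AMOTL2, WWC1, TEAD4, FJX1, F3, CCN1, AJUBA, CRIM1 and ASAP1), and 2 of the 6 falls (STK3 and TEAD3). Only 1 co-activator, TEAD or VGLL factor fell, in place of 2, with DESeq2 size factors, with the Wald test of DESeq2, with no filter on low counts and with the replicate block, where VGLL4 had an edgeR adjusted p of 0.117. The block called 11 rises and 5 falls among the 35 genes, and same-numbered libraries did not deviate together (correlations −0.12, −0.01 and −0.04); no library correlated best with its own number. Of all tested genes, 43.4% were called with the block and 36.6% to 50.1% with a library left out, against 48.8% in the main test. Falls over all genes numbered 2764 to 3807 with a library left out, against 3601. Leaving out each library in turn gave 2 to 5 falls among all 35 genes against 6, 2 to 5 rises and 1 to 2 falls among upstream components against 3 and 2, 1 to 2 rises and 1 to 2 falls among the nuclear factors against 1 and 2, and 0 to 2 falls among the target genes against 2. The count was 0 without ApoD overexpression replicate 1 and without control replicate 2, where edgeR gave 2 lower genes at an unadjusted p under 0.05 and where DESeq2 on all libraries called 2. Library totals alone gave a median of −0.13 over all genes, against −0.02, with 10 rises and 8 falls among the 35 genes and 2581 rises and 4432 falls among all genes.

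Signs were reversed for genes that had not passed. YAP1 stood at −0.034 with library totals, −0.12 with the abundance trend removed and −0.036 to −0.037 on FPKM, and WWTR1 at −0.070, −0.090 and, on FPKM, −0.060 and −0.064. With the trend removed STK4 stood at −0.013, VGLL3 at 0.0043 and RBMS3 at 0.18. Leaving out each library in turn gave −0.14 to 0.020 for MOB1A, −0.28 to 0.049 for TAOK1, −0.035 to 0.14 for WWTR1 and −0.15 to 0.0062 for TEAD2. It also gave differences of −2.85 to 0.209 percentage points for the TEAD1 share and of −0.11 to 0.044 for the log2 ratio of WWTR1 to YAP1. The cause was not tested. At the totals reached, genes under 100 counts such as CCN2 and ANKRD1 had SEs of 0.38 on the log2 scale.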
